A study of Homo sapiens with 9 samples.

Results

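The set comprised 10 genes of the mesenchymal matrix: FBLN1, FAP, COL5A1, COL5A2, COL6A1, COL6A2, COL12A1, SPARC, FN1 and VIM. They were chosen by their measured level in HeyA8 cells, as genes of stromal type that the cancer line appeared to express, so the levels below are a description and were not tested. Of the 10 genes, 9 had a named probe, out of 18354 genes named on the array, and SPARC, which had no probe named here, was not analysed here. The 9 genes had 17 probes, and where a gene had several, the brightest on average stood for it. All 9 passed the filter on dim probes (a mean above 7.46) among 10862 genes tested. FAP and FN1 lay below that filter value in deprived monoculture and passed through their levels in the other groups.

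HeyA8, also spelled Hey8A in the labels, is an established human ovarian cancer line, and its RNA was measured on Illumina bead arrays. The 3 groups of 3 arrays were monoculture in complete medium, monoculture in medium lacking glutamine, and coculture with cancer-associated fibroblasts in medium lacking glutamine. The cells were seeded on day 0 in RPMI 1640, fibroblasts on inserts were added to the coculture on day 1, and the medium was renewed on day 4, with collection 24 h later. The labels name no genetic change in any group, and they give the cancer cell as the source of the coculture RNA. No coculture in complete medium was analysed here, so the effect of fibroblasts with glutamine present could not be seen. Nothing in the labels says whether the 3 arrays of a group came from separate cultures, so the p-values measure only the spread between these arrays, which may be technical.

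Collagens are secreted triple helices made of chains from separate genes. Collagen V, built mainly of the COL5A1 and COL5A2 chains, starts and limits the width of collagen I fibrils, collagen VI forms beaded filaments near the cell surface, and collagen XII binds to fibril surfaces. Fibulin-1 (FBLN1) and fibronectin (FN1) are secreted glycoproteins that join matrix fibres to each other and to cells, while fibroblast activation protein (FAP) is a cell surface serine protease best known from reactive fibroblasts of tumours. Vimentin (VIM) is the intermediate filament protein of mesenchymal cells and of carcinoma cells that have taken on mesenchymal traits.

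Levels are on the authors' deposited log2-like scale and differences are between group means on that scale. The arrays ran from a background floor, marked here at 7.5, to maxima of 14.25 to 14.62. The mean of 56.6% of all probes lay under this mark, and a difference that involves a level near it understates the change. Cells were measured in bulk, so fewer cells that express a gene and less RNA per cell cannot be told apart. Differences were tested with limma over all genes and called at a Benjamini-Hochberg adjusted p under 0.05. Arrays within a group correlated across probes at r of 0.996 to 0.998, and arrays of different groups at 0.960 to 0.990. The median difference over all genes tested was 0.015 for deprivation, -0.0095 for coculture against deprived monoculture and 0.0076 for deprived coculture against complete medium.

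The data did not bear out the label of expression for every gene. By the brightest probe, 5 of the 9 genes were above the floor mark in all 9 arrays, namely COL5A1, COL5A2, COL6A1, COL6A2 and VIM. COL5A1 was so by a small margin, at a mean of 7.55 over the arrays, just inside the mark. FN1 lay just outside it at 7.48, with 4 of 9 arrays above the mark, and its other probes were above it in 2 arrays and in 1 array. Only 3 genes had a mean above 8, COL5A2, COL6A1 and VIM. The markers of the labelled cell type were present in part. Of 16, KRT8, KRT7, KRT18 and PAX8 were above the mark in every array. So were MSLN and EPCAM, at low means of 7.86 and 7.67. CDH1, MUC16, ESR1, CLDN3 and FOLR1 were under it in every array.

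The promoters of 3 genes called lower without glutamine are shown here. FBLN1 differed the most between groups. COL12A1 differed less and ended at the floor mark, and FN1 was called by a small margin, close to the floor throughout. The table of RefSeq promoters (GRCh38.p14) matched 7 of the 10 genes. Each window runs from 250 bases before the start of the gene to 50 bases after it, 5′ to 3′ on the strand of the gene. Capitals mark every match on either strand to the GC box GGGCGG, the TATA box TATAAA, the cAMP response element TGACGTCA, the AP-1 site TGANTCA and TGATGNAA, the core of the amino acid response element.
FBLN1, chr22:45502633-45502932, plus strand: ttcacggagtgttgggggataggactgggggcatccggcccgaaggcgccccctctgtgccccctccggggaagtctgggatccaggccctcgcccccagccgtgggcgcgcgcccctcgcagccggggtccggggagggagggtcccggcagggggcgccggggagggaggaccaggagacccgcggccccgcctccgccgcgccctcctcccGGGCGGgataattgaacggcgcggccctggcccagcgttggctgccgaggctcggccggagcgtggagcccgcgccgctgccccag
COL12A1, chr6:75206004-75206303, minus strand: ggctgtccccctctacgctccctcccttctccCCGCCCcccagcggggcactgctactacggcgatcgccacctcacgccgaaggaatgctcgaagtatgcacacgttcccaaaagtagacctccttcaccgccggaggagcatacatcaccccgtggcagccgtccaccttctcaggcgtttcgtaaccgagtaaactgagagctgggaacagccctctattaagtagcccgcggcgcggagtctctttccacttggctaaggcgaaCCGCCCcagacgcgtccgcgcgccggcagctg
FN1, chr2:215436019-215436318, minus strand: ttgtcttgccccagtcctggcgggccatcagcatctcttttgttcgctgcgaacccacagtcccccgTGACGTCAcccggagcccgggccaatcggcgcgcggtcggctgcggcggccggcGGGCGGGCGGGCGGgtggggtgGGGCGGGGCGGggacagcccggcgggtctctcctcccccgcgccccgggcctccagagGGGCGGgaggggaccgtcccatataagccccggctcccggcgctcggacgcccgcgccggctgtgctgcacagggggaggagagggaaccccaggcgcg

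The FBLN1 window held 1 GC box, the COL12A1 window 2 and the FN1 window 6, some of which overlap each other. A GC box was present in 45.0% of 35116 promoter windows. The cAMP response element, at base -183 from the FN1 start, was present in 1.85% of windows. Neither the AP-1 site nor the amino acid response core was found in these 3 windows, and they were present in 7.71% and 3.62% of all windows. The GC content was 78.0% for FBLN1, 63.3% for COL12A1 and 76.7% for FN1, against a median of 58.7%. These matches describe letters in the windows and were not set against binding or expression.

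**Figure D1:**
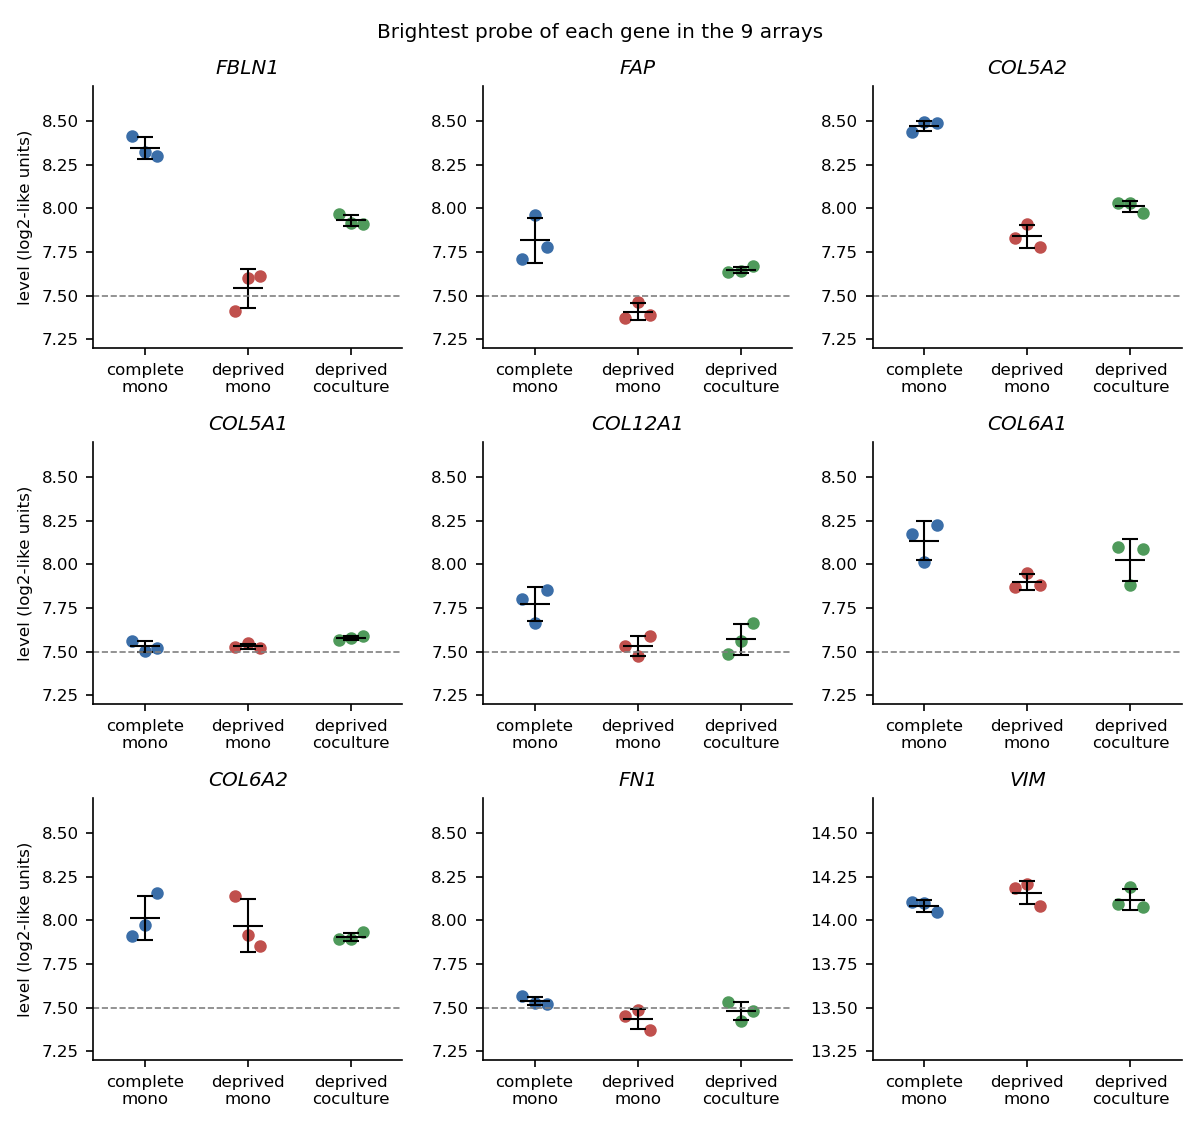
Level of the brightest probe of each of the 9 genes (vertical axis, log2-like units) in the 3 groups. Dots are single arrays, bars are mean ± SD (n = 3) and the dashed line is the floor mark of 7.5; the VIM panel has a higher range of the same span. FBLN1, FAP and COL5A2 were highest in complete monoculture, lowest in deprived monoculture and intermediate in deprived coculture, without overlap.

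Deprivation of glutamine in monoculture was the first comparison. Genes of fibulin, the stromal protease and part of the collagens were lower without glutamine, while vimentin, COL6A2 and COL5A1 did not pass the test. Of the 9 genes, 6 were called lower and 0 higher, against 24.3% of all tested genes called lower and 30% called higher. The 6 were FBLN1, COL5A2, FAP, COL12A1, COL6A1 and FN1, and in all of them the 3 deprived arrays lay below the 3 complete arrays, as in 26.2% of all genes. FAP and FN1 had deprived means of 7.41 and 7.44, under the filter value, and were tested through their levels in the other groups. A call of higher was therefore hardly open to them. The median difference of the 9 was -0.24.

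The secreted linker FBLN1 had the largest difference of the 9. Its brightest probe read 8.42, 8.32 and 8.30 in complete medium and 7.41, 7.60 and 7.61 without glutamine. The lowest deprived array lay under the floor mark and the others just above it, so the groups stood well apart and the fall ended at the floor. The means were 8.35 ± 0.06 (SD, n = 3) and 7.54 ± 0.11, a difference of -0.80 (SE 0.058; limma adjusted p = 3.19e-10), or 1.75-fold lower. With the mean of its 3 probes the difference was -0.40.

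Fibulin-1 is made as splice forms that share most of the protein and end differently, and its 3 probes are annotated to separate RefSeq transcripts, although whether each probe reads that form alone was not tested. The brightest is annotated to form D, the second to form C and the third to form A. The form C probe read 7.78, 7.60 and 7.79 in complete medium and 7.43, 7.44 and 7.39 without glutamine, a difference of -0.30 (limma p adjusted over all probes 1.66e-05). It was above the floor mark in the complete arrays and under it in all others. The form A probe lay between 7.38 and 7.51 in all 9 arrays and did not pass the filter.

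FAP, the protease of reactive fibroblasts, was at a low level above the floor mark in complete medium. It read 7.71, 7.96 and 7.78 in complete medium and 7.37, 7.46 and 7.39 without glutamine, where all 3 arrays were under the floor mark. The difference of -0.41 (SE 0.053; limma adjusted p = 1.52e-06) therefore ended at the floor, and the true fall may be larger than the 1.33-fold measured.

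The collagen V chains COL5A2 and COL5A1 were read by a probe each. COL5A2 read 8.44, 8.49 and 8.49 in complete medium and 7.83, 7.91 and 7.78 without glutamine, above the floor mark throughout. The difference was -0.63 (SE 0.054; limma adjusted p = 3.9e-09), or 1.55-fold lower, between means of 8.47 ± 0.03 and 7.84 ± 0.07 (SD, n = 3). COL5A1, its partner chain, lay between 7.504 and 7.563 in the 6 arrays, where a difference is hard to detect (difference 0.00, 95% interval -0.08 to 0.08; limma adjusted p = 0.99). The levels of different probes cannot be ranked, and whether the chains' responses differed was not tested. The third chain, COL5A3, stayed under the mark in all 9 arrays.

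Collagen VI is assembled from several chains, of which COL6A1 and COL6A2 are encoded by neighbouring genes. COL6A1 read 8.17, 8.01 and 8.22 in complete medium and 7.87, 7.95 and 7.88 without glutamine. Its difference was -0.24 (SE 0.066; limma adjusted p = 0.00456), a small gap between groups whose nearest arrays were 8.01 and 7.95. COL6A2 read 7.91, 7.97 and 8.16 against 8.14, 7.91 and 7.85, so its groups overlapped (difference -0.04, 95% interval -0.19 to 0.10). A second COL6A2 probe differed by -0.13 (limma p adjusted over all probes 0.041), while the dimmest probe, near the floor, differed by -0.03. COL6A3, the third main chain of collagen VI, had means of 7.49, 7.44 and 7.52 in complete, deprived and coculture arrays, at the floor.

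COL12A1, of the collagen that decorates fibrils, read 7.80, 7.66 and 7.85 in complete medium and 7.53, 7.48 and 7.59 without glutamine. The deprived arrays lay at the floor mark and the complete arrays above it, with a difference of -0.24 (SE 0.054; limma adjusted p = 0.000822). This probe is annotated to the short form of the chain, and the probe for the long form differed by -0.27 (limma p adjusted over all probes 0.0224). In the long form probe the third complete array stood apart at 8.02, above 7.53 and 7.58.

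Fibronectin and vimentin lay at opposite ends of the range of the arrays. FN1 read 7.57, 7.53 and 7.52 in complete medium and 7.45, 7.48 and 7.37 without glutamine, all close to the floor mark. Its difference of -0.10 (SE 0.041; limma adjusted p = 0.0414) was called by a small margin, and the call was lost without either of deprived arrays 1 and 3 or any of the 3 complete arrays (adjusted p of 0.0546 to 0.203). The other FN1 probes did not show it: the second differed by -0.02, and the third did not pass the filter. VIM read 14.10, 14.10 and 14.05 in complete medium and 14.18, 14.21 and 14.08 without glutamine, close to the top of the scale, where differences can be compressed. The groups overlapped (difference 0.07, 95% interval -0.04 to 0.19; limma adjusted p = 0.252), and the second VIM probe differed by 0.03.

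**Figure D2:**
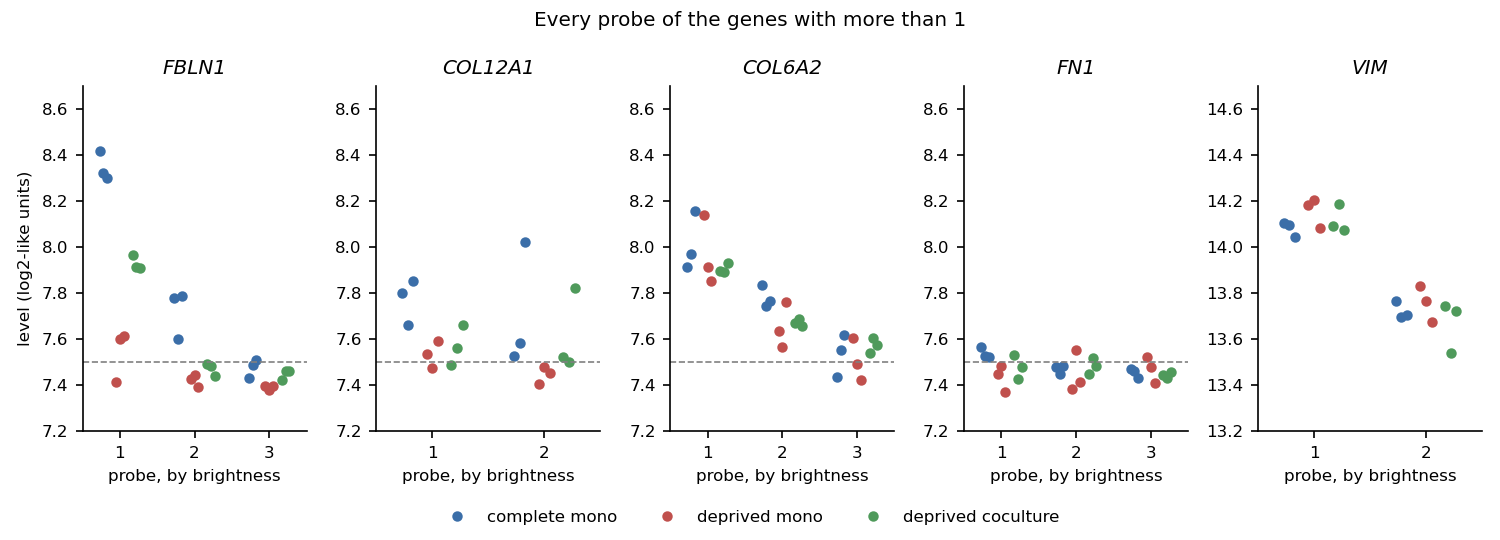
Levels of every probe (vertical axis, log2-like units) of the 5 genes with more than 1 probe, ordered by brightness along the horizontal axis; dots are single arrays coloured by group and the dashed line is the floor mark of 7.5. Of the FBLN1 probes, the brightest, annotated to form D, is the one above the mark in deprived coculture, and all FN1 probes lie around the mark.

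Deprived coculture was compared with deprived monoculture to see what fibroblasts on inserts changed. FBLN1, FAP and COL5A2, which had the 3 largest falls in deprivation, were higher in coculture, and no gene of the set was lower. These 3 calls of 9 stand beside 12.7% of all genes called higher and 15.1% called lower. FAP, under the filter value in deprived monoculture, was tested through its levels in the other groups. The coculture arrays lay above all deprived monoculture arrays for 4 of the genes, the 3 named and COL5A1, as in 18.6% of all genes. The median difference of the 9 genes was 0.05. Both this and the former comparison use the deprived monoculture arrays, so their values stand side by side and were not correlated.

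FBLN1 read 7.97, 7.91 and 7.91 in coculture against 7.41, 7.60 and 7.61 in deprived monoculture. The coculture arrays were close to each other and all above the floor mark, at a difference of 0.39 (SE 0.058; limma adjusted p = 3.81e-05), or 1.31-fold higher. The form C probe read 7.49, 7.49 and 7.44 in coculture, under the mark like the deprived arrays, and its difference of 0.05 was not called (limma p adjusted over all probes 0.485). With the mean of the 3 probes the FBLN1 difference was 0.17 (limma adjusted p = 0.00219).

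FAP read 7.64, 7.64 and 7.67 in coculture, all above the mark, against 7.37, 7.46 and 7.39, all under it. The difference was 0.24 (SE 0.053; limma adjusted p = 0.00185). COL5A2 read 8.03, 8.03 and 7.98 in coculture against 7.83, 7.91 and 7.78, a difference of 0.17 (SE 0.054; limma adjusted p = 0.0204). The COL5A2 groups did not overlap, but leaving out deprived monoculture array 3 (adjusted p = 0.0919), coculture array 1 (0.0677) or coculture array 2 (0.0679) ended the call.

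The other collagen genes did not pass the test in coculture. COL6A1 read 8.10, 7.88 and 8.09, with array 2 at the level of the deprived monoculture and the others above it (difference 0.12, 95% interval -0.01 to 0.26; limma adjusted p = 0.179). Without coculture array 2 the difference was 0.19 and passed (adjusted p = 0.044). COL6A2 differed by -0.06 (95% interval -0.21 to 0.08), and COL12A1 by 0.04 (-0.08 to 0.15). The COL12A1 long form probe read 7.524, 7.502 and 7.822, with array 3 apart from the others. COL5A1 was at 7.57, 7.58 and 7.59 in coculture, close to the floor in all arrays (difference 0.05, 95% interval -0.03 to 0.13). FN1 differed by 0.04 (-0.04 to 0.13) and VIM by -0.04 (-0.15 to 0.07).

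These genes are typical of fibroblasts, so fibroblast markers were followed in the same arrays. Of 20 markers, all with a probe, 11 were under the floor mark in all 9 arrays, among them COL3A1, LUM, POSTN, PDGFRB, THY1 and MMP2. By the mean over the arrays, 6 of the 20 markers were above the mark. Over the whole array the mean of 56.6% of probes lay under the mark. That share counts every probe, named or not, while each marker was read by its brightest probe. It therefore cannot show whether the markers were under the mark more often than other genes. COL1A1, the main chain of collagen I, had means of 7.49 ± 0.06 in complete monoculture, 7.48 ± 0.07 in deprived monoculture and 7.56 ± 0.13 in coculture (SD, n = 3; limma adjusted p = 0.344 for coculture). COL1A2 and DCN were above the mark in 1 array each. The summed level of the 20 markers ran from 154.9 to 155.4 in complete monoculture, from 155.3 to 155.8 in deprived monoculture and from 156.0 to 156.6 in coculture. Of 6 markers tested, 2 were called higher in coculture, PDPN and TAGLN, and 1 lower, ACTA2. Among all tested genes 12.7% were called higher and 15.1% lower. The coculture differences were 0.83 for PDPN, 0.51 for TAGLN and -0.60 for ACTA2, so these genes weigh most in the sum. The means of the other listed markers moved less. In complete monoculture, where there were no fibroblasts, PDPN was at 11.1 ± 0.08, TAGLN at 7.77 ± 0.04 and ACTA2 at 10.2 ± 0.03. Between the monocultures the deprivation differences were -1.14 for PDPN and 1.54 for ACTA2, both called, and -0.09 for TAGLN, not called. The part of fibroblast RNA in the results for FBLN1, FAP and COL5A2 was not tested beyond these values.

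**Figure D3:**
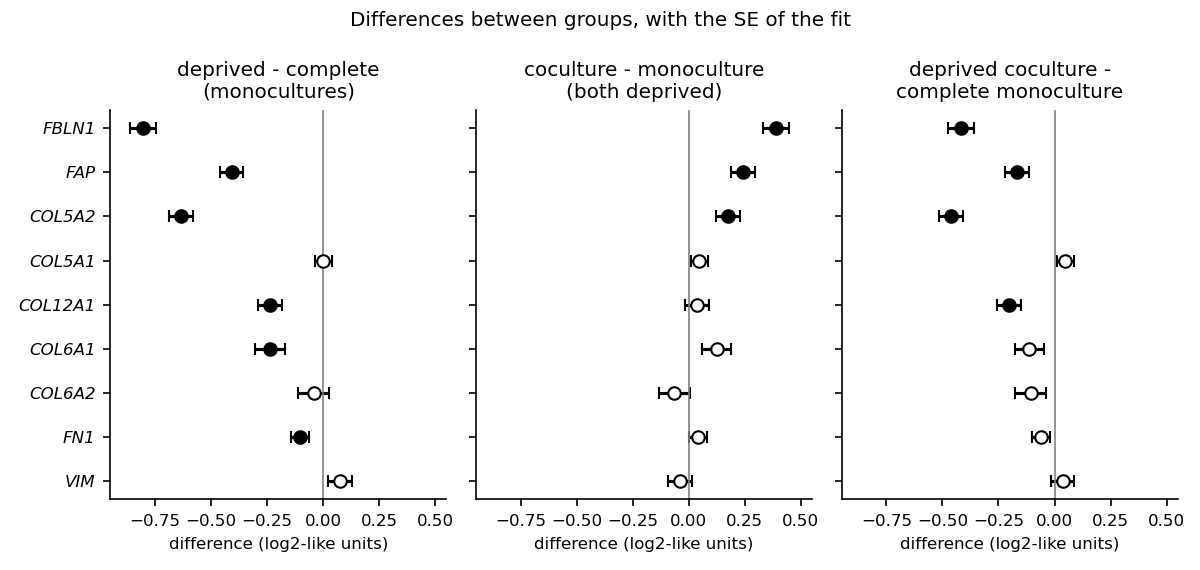
Differences between group means (horizontal axis, log2-like units) of the 9 genes in the 3 comparisons, with the SE of the fit as bars. Filled dots passed an adjusted p under 0.05: 6 genes lower in the first panel, 3 higher in the second and 4 lower in the third.

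Deprived coculture against complete monoculture showed what remained. Of the 9 genes, 4 were called lower and 0 higher, FBLN1, COL5A2, COL12A1 and FAP, beside 20.7% of all genes called lower and 22.3% called higher. In these 4 the groups did not overlap, as for 24.8% of all genes in the downward direction. FBLN1 was at 7.93 ± 0.03 in coculture and 8.35 ± 0.06 in complete medium (difference -0.42, SE 0.058; limma adjusted p = 6.84e-06). COL5A2 was at 8.01 ± 0.03 against 8.47 ± 0.03 (difference -0.46, SE 0.054; limma adjusted p = 7.54e-07). COL12A1 differed by -0.20 (limma adjusted p = 0.00443), a call that was lost with the mean of its probes (-0.15, adjusted p = 0.127).

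FAP differed by -0.17 (limma adjusted p = 0.0141), and without complete array 2, its highest, by -0.10 (adjusted p = 0.112). COL6A1 differed by -0.11 (95% interval -0.25 to 0.03) and COL6A2 by -0.11 (-0.25 to 0.04). With 1 array left out, the COL6A1 value ran from -0.17 without complete array 2 to -0.04 without coculture array 2. The COL6A2 value ran from -0.16 without complete array 1 to -0.03 without complete array 3, and neither gene was called in any of these fits. FN1 differed by -0.06, COL5A1 by 0.05 and VIM by 0.04, and none of them passed the test. The 3 graded genes FBLN1, COL5A2 and FAP therefore had the order complete, coculture, deprived, with each neighbouring pair called apart.

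The course of FBLN1 and COL5A2 over the 9 arrays was shared by many genes. The gene most like FBLN1 by Pearson correlation over the 9 arrays was NONO, a nuclear RNA-binding protein (r = 0.998), at 12.9, 12.2 and 12.5 in complete, deprived and coculture arrays. For COL5A2 it was CDC25C, the phosphatase that activates CDK1 at mitosis (r = 0.997), at 8.47, 7.56 and 7.80. In all, 491 tested genes had an r of at least 0.95 with FBLN1 and 621 with COL5A2. These values describe 9 arrays in 3 groups, so r reflects mainly the group means.

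Genes of related function were described by lists chosen with earlier results of these data known. With the mean of all probes in place of the brightest, the differences of P4HA1, CRTAP, COL4A5, MFAP2, LTBP3, LTBP4, TAGLN, KRT18 and PAX8 kept their direction and call but were over 1.5 times smaller in at least 1 comparison. Counts in these lists stand beside 30% of all tested genes called higher and 24.3% lower without glutamine, and 12.7% called higher and 15.1% lower in coculture. Of 112 listed genes tested besides the matrix genes, 18 had a group mean under the filter value and passed through another group. Without glutamine 5 of these 18 were called lower and 1 higher, and in coculture 0 were called.

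Of 30 genes that make, modify or cross-link collagen, 29 had a probe and 23 were tested. Without glutamine 13 were called lower (24.3% of all genes) and 5 higher (30%), with a median difference of -0.18. In coculture 9 were called higher (12.7% of all genes) and 2 lower (15.1%), with a median of 0.09. PCOLCE2, an enhancer of procollagen processing, was 2.09-fold lower without glutamine (9.33 ± 0.04 to 8.27 ± 0.03) and 1.37-fold higher in coculture (8.72 ± 0.06).

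P4HA1, a catalytic chain of the prolyl hydroxylase that stabilises the helix, was 1.83-fold lower without glutamine and 1.30-fold higher in coculture. CRTAP, a partner of prolyl 3-hydroxylase, was 1.55-fold lower and 1.48-fold higher, and its coculture level of 9.27 ± 0.05 did not differ by the test from 9.33 ± 0.02 in complete medium (adjusted p = 0.424). Members went the other way as well. P4HA2, a relative of P4HA1, was 1.30-fold higher without glutamine and 1.25-fold lower in coculture. SERPINH1, the collagen chaperone HSP47, was 1.20-fold higher without glutamine (adjusted p = 0.00162), and LOX, the cross-linking lysyl oxidase, was 1.14-fold higher without glutamine and 1.36-fold lower in coculture.

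Of 39 other collagen chains, 38 had a probe, 17 of these were under the floor mark in all arrays and 16 were tested. Without glutamine 4 were called lower and 2 higher, and in coculture 2 were higher and 0 lower. COL4A1, of the basement membrane, was 1.22-fold lower without glutamine and 1.62-fold higher in coculture (9.71 ± 0.08 in deprived monoculture and 10.4 ± 0.12 in coculture). COL7A1, of anchoring fibrils, was 1.52-fold higher in coculture (8.58 ± 0.10 against 7.98 ± 0.08), and COL4A5 was 1.20-fold higher without glutamine. COL11A1, a minor fibrillar chain that can join collagen V, lay at the floor with means of 7.44, 7.44 and 7.51.

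Other fibulins, fibrillins and microfibril proteins went both ways, with 4 of 14 tested genes higher and 2 lower without glutamine, and 3 higher and 1 lower in coculture. The microfibril gene MFAP2 and the fibrillin gene FBN2 were 1.40-fold and 1.42-fold higher without glutamine. The 2 called lower were LTBP2, by 1.21-fold (adjusted p = 0.000255), and EFEMP1, the gene of fibulin-3, by 1.19-fold (7.71 ± 0.03 to 7.46 ± 0.01, at the floor; adjusted p = 9.15e-06). FBN2 was 1.30-fold lower in coculture. LTBP2 and LTBP3, of the latent TGF-beta binding protein family, were higher in coculture by 0.58 and 0.41 on the log2-like scale, and LTBP4 was higher in both comparisons, by 1.36-fold and 1.20-fold. FBLN2, a relative of FBLN1, was under the mark in all arrays.

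Matricellular genes, which signal from the matrix, were called lower for 4 and higher for 3 of 10 tested without glutamine. CCN2 was 3.17-fold lower without glutamine and, at 10.9 ± 0.04 in coculture against 10.3 ± 0.16, higher with fibroblasts by 0.58. CCN1, of the same family, was called lower in both comparisons (differences -0.47 and -0.31). Tenascin-C (TNC) was 1.76-fold higher without glutamine and was at 10.6 ± 0.10 in coculture (difference -0.05; adjusted p = 0.729). SPP1, osteopontin, was 1.36-fold higher and then 1.22-fold lower, and SPOCK1, a relative of SPARC, was 1.19-fold higher in coculture. In coculture 3 of these genes were higher and 2 lower.

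Matrix proteases and inhibitors, the group to which FAP belongs by function, had 8 of 19 tested genes lower and 7 higher without glutamine. In coculture 4 were higher and 5 lower. The list also holds relatives of FAP that are not all matrix proteases: DPP4, DPP6, DPP7, DPP8, DPP9, DPP10 and PREP. Of these, DPP6 was not tested. DPP4, DPP7 and PREP were called lower and DPP8 and DPP9 higher without glutamine. DPP4 lay close to the floor, with means of 7.54, 7.40 and 7.46 in complete, deprived and coculture arrays. It was under the filter value in deprived monoculture and passed through its levels in the other groups. In coculture DPP8 and DPP9 were called lower, and PREP higher, although its groups overlapped (limma adjusted p = 0.038). PLAU, the urokinase protease, was 2.63-fold lower without glutamine and 1.59-fold higher in coculture, and MMP9 was 1.22-fold higher in coculture. The inhibitors TIMP1 and SERPINE2 were 3.39-fold and 2.77-fold higher without glutamine and 1.23-fold and 1.72-fold lower in coculture.

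Intermediate filament genes other than keratins were listed together with PLEC, a linker of filaments. Of 8 tested, 2 were lower and 2 higher without glutamine. The lamin genes LMNB2 and LMNB1 were 2.37-fold and 1.92-fold lower, and LMNB1 ended at the floor, at a deprived mean of 7.48. The lamin gene LMNA was 1.14-fold higher, and PLEC, the gene of plectin, 1.83-fold higher. In coculture LMNB2 was 1.39-fold higher and PLEC 1.34-fold lower, while LMNB1 was not called (difference 0.07). With the mean of its probes the PLEC differences were 0.079 without glutamine and -0.028 in coculture, the latter no longer called (adjusted p = 0.54).

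Transcription factors of the epithelial to mesenchymal transition and cadherins went both ways, with 3 of 8 tested genes lower and 1 higher without glutamine. TWIST1 was 1.49-fold lower, TWIST2 1.33-fold lower and SNAI2 1.53-fold higher. In coculture SNAI2 and TWIST2 were higher, by 1.21-fold and 1.26-fold, and 0 genes were lower. SNAI1 and CDH1, the epithelial cadherin, were under the mark in all arrays.

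Epithelial and ovarian markers were lower for 8 of 10 tested genes without glutamine and higher for 0, beside 24.3% and 30% of all genes, with a median difference of -0.47. They include KRT19, which passed the filter through complete medium alone (means of 7.70, 7.37 and 7.42). KRT8 was 2.74-fold lower, KRT18 1.64-fold and MSLN, mesothelin, 1.53-fold lower. EPCAM and WT1, close to the floor, differed by -0.24 and -0.13, and the WT1 call was lost without deprived array 2 (adjusted p = 0.0524). In coculture 3 were higher and 0 lower: KRT7 by 1.72-fold, PAX8 by 1.42-fold and KRT8 by 1.41-fold. Both the mesenchymal matrix genes and the epithelial markers had called falls without glutamine.

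**Figure D4:**
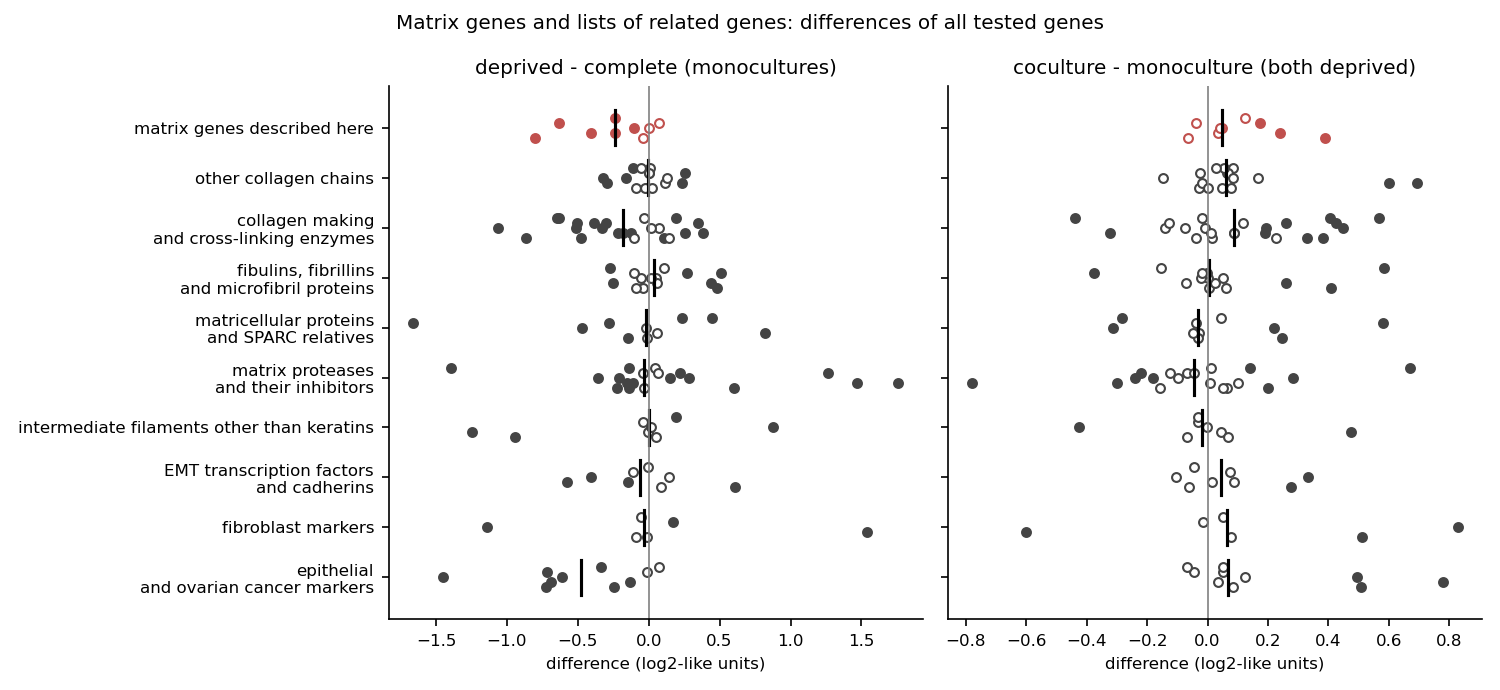
Differences between group means (horizontal axis, log2-like units) of all tested genes of each list, for deprivation in monoculture (left) and for coculture under deprivation (right). Filled dots passed an adjusted p under 0.05, vertical bars are list medians and the matrix genes described here are in red; the medians were -0.24 and 0.05 for these genes and -0.18 and 0.09 for the genes that make and cross-link collagen.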

How the data were processed

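Biotin-labelled cRNA of 9 samples was measured on Illumina bead arrays. The authors deposited 1 log2-like value per probe and array, for 34476 probes; the submitters' processing notes name lumi. No source used here gives the background correction, the normalization or whether values were variance-stabilised, and folds assume plain log2. Array medians ran from 7.4706 to 7.4731. Depth has no meaning here; the number of arrays limits precision, and no detection p was used.

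Probes were named from the platform annotation (26366 with 1 symbol, 3 with several, 8107 with none; 26333 matched RefSeq by gene identifier and 0 symbols changed). The brightest probe stood for a gene, and genes with a mean above the median of all probe means, 7.46, were tested. limma 3.58.1 in R 4.3.3 (lmFit, eBayes with trend, 3 group means over 9 arrays, two-sided) gave differences, with 6 residual and 13.3 prior degrees of freedom; it was tested on simulated data. Tables used pandas 2.3.3 and numpy 2.4.6 under Python 3.11.15, and plots matplotlib 3.10.9. Other probe rules, filters, variance models, scalings, a replicate block and left-out arrays were alternatives.

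The genes and lists were chosen with earlier results of these data known. Named beside the 10 were up to 3 called genes per list and comparison (smallest p, groups not overlapping), fixed marker and partner genes, and the gene most alike by correlation where group means spanned at least 0.5, 58 names in all, not all reported; COL4A2 is among those. CDH1, MUC16, ESR1, CLDN3, FOLR1, POSTN, PDGFRB, THY1, MMP2, SNAI1, FBLN2, EFEMP1 and KRT19 were named after their values were seen. The same holds for LMNA, P4HA2, CCN1, DPP4, DPP6, DPP7, DPP8, DPP9, DPP10 and PREP.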

Additional observations from a re-analysis of the deposited data

How the results depend on the processing

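Of 27 differences (9 genes, 3 comparisons), 17 kept their direction and their side of the threshold in all alternatives run. Counts of called genes among the 9 stayed at 5 to 6, 2 to 3 and 3 to 4 when 1 array was left out (deprivation, coculture, coculture against complete). With only genes above a mean of 8, where 3 of the 9 were tested, they were 2, 1 and 1, because fewer genes entered. FN1 also left the tested set with a mean above 7.5. The FN1 call was lost as well with the mean of its probes (-0.04), without the filter (adjusted p = 0.0551) and without the variance trend (0.0937). Differences that turned sign were not called for the gene under any setting run, although the second COL6A2 probe alone was called lower in deprivation. With arrays centred on genes above 8, COL5A1 was at -0.0201 and COL11A1 at -0.0191 (deprivation). With the mean of probes, COL6A2 was at 0.00614 (coculture) and VIM at -0.00907 (coculture against complete). With 1 array left out the deprivation difference ran from -0.0120 to 0.0177 for COL5A1, -0.128 to 0.0291 for COL6A2, -0.0462 to 0.0272 for COL1A1 and -0.0213 to 0.0215 for COL11A1. For coculture it ran from -0.122 to 0.0214 for COL6A2, -0.00974 to 0.0770 for COL12A1, -0.155 to 0.0303 for TNC, -0.00474 to 0.0987 for KRT18 and -0.000181 to 0.120 for COL1A1. The replicate numbers did not pair the arrays (3 of 9 same-number correlations above 0.1, from -0.26 to 0.21); with a replicate block 6, 3 and 4 of the 9 genes were called, and 5802, 2901 and 4563 genes in all. Leaving out 1 array gave 5459 to 5867, 2463 to 3009 and 4145 to 4801 genes in all. Signal near the floor limits what can be seen for FN1, COL5A1, FAP and COL12A1.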
